A study of Homo sapiens with 6 samples.

Results

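RGS8 and 9 other regulators of G protein signalling (RGS2, RGS3, RGS4, RGS5, RGS7, RGS10, RGS12, RGS16 and RGS17) were followed after depletion of CyCoNP in differentiating neuroblastoma cells. The 10 genes were matched by Ensembl identifier among the 60676 genes listed, and 9 of them reached the expression level required for a test, a mean of at least 1 FPKM (fragments per kilobase of gene length and 1e+06 counted fragments) in either group, as did 13966 genes in all. The family was chosen by a measured value, the edgeR p-value of RGS8, which was the smallest of all genes tested. The RGS8 values are therefore given as a description, with no test. The other members were compared with the controls in the fit across all genes.

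CyCoNP (LINC02381) is a long noncoding RNA (lncRNA) of neural progenitors, and the study asked which RNAs change in level when it is depleted. The cells were SK-N-BE, which derive from a human neuroblastoma and take on neuronal traits under retinoic acid, and they received either a scrambled siRNA (si-SCR) or a pool of siRNAs against CyCoNP (si-CyCoNP). All cells were then held for 1.5 days in differentiation medium containing 10 μM retinoic acid, so that both groups carried the retinoic acid treatment and a transfection. Each group had 3 libraries of ribosomal RNA-depleted total RNA from this single line, and what the separate siRNAs of the pool did was not measured here.

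RGS proteins share a domain that speeds up GTP hydrolysis by the G alpha subunits of heterotrimeric G proteins, and so shorten the signal that a G protein coupled receptor sets off. Small members of the R4 subfamily (RGS2, RGS4, RGS5, RGS8 and RGS16, with the larger RGS3) act mainly on Gi and Gq, RGS7 belongs to the R7 subfamily that works with the atypical beta subunit GNB5, RGS10 and RGS12 to R12, and RGS17 to RZ, which favours Gz. In neurons they set how long responses to acetylcholine, monoamines and opioids last, and RGS5 is also widely used as a marker of pericytes.

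Total counts per library lay between 3762009 and 4799407. LINC02381, the targeted lncRNA, had 274, 208 and 315 counts in si-SCR against 20, 30 and 12 in si-CyCoNP, a log2 fold change of -3.78 ± 0.19 (SE) with an adjusted p of 6.95e-14 in edgeR's quasi-likelihood test. Of the 12 neuroblastoma and sympathetic neuron markers listed, all 12 passed the expression filter, whereas none of the 6 blood and endothelial markers did. Adjusted p-values below are from the same edgeR fit. The labels do not say whether the libraries came from separate cultures, so the p-values measure the spread between these libraries.

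The study examined the microRNA miR-4492 as a partner of CyCoNP, so its sequence and the matching letters in RGS transcripts are shown here. The mature microRNA is printed 5′ to 3′ with its seed, bases 2 to 8, in capitals, as RefSeq gives it on GRCh38.p14 (chromosome 11, 118910765 to 118910781, plus strand).
hsa-miR-4492: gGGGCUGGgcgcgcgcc
The 7 letters complementary to that seed are CCAGCCC. They were searched on the sense strand of the 3′ UTR of the canonical GENCODE transcript of each gene. Of the 10 members, 3 held 1 match each and 7 held none. These 3 were the members with the longest 3′ UTRs, of 4917 bases in RGS8, 5043 in RGS5 and 7115 in RGS17. Each match is printed 5′ to 3′ in the sense of the mRNA, with the 7 letters in capitals and 8 flanking bases on each side.
RGS8: gaacctggCCAGCCCtgcagcct
RGS5: caaatattCCAGCCCcaaatgag
RGS17: agtcctctCCAGCCCcaagtaac
On GRCh38 the 7 letters lie in the 3′ UTR of RGS8 on chromosome 1 at 182643232 to 182643238, in that of RGS5 on chromosome 1 at 163144870 to 163144876, and in that of RGS17 on chromosome 6 at 153007105 to 153007111, on the minus strand in each case. Among the 10485 tested protein-coding genes with an annotated 3′ UTR, 23.4% held at least 1 match, and their median 3′ UTR length was 1397 bases. A match is a stretch of letters and not a measured binding site, and microRNAs were not measured in these libraries.

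RGS8 mRNA was nearly lost in si-CyCoNP. RGS8 (ENSG00000135824, a brain R4 member that acts on Gi and Gq) lies on the minus strand of chromosome 1 at 182641816 to 182684587 (GRCh38). It had 473, 457 and 480 counts in si-SCR libraries 1 to 3, and 21, 16 and 18 counts in si-CyCoNP libraries 1 to 3. The groups were separated by a wide gap, and libraries of the same group lay close together. RGS8 FPKM was 16.5, 18.2 and 15.0 in si-SCR (16.6 ± 1.58, SD, n = 3), and 0.655, 0.563 and 0.649 in si-CyCoNP (0.622 ± 0.0513). The log2 fold change was -4.79 ± 0.158 (SE), 27.6-fold lower, with 3.62% of the si-SCR level remaining. Only 1 of the genes tested had a log2 fold change below that of RGS8. Its log2 fold change ranged from -4.87 to -3.43 over 15 alternative analyses, and the smallest change came from log2(FPKM + 1), where the added 1 exceeds the si-CyCoNP level itself.

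**Figure D1:**
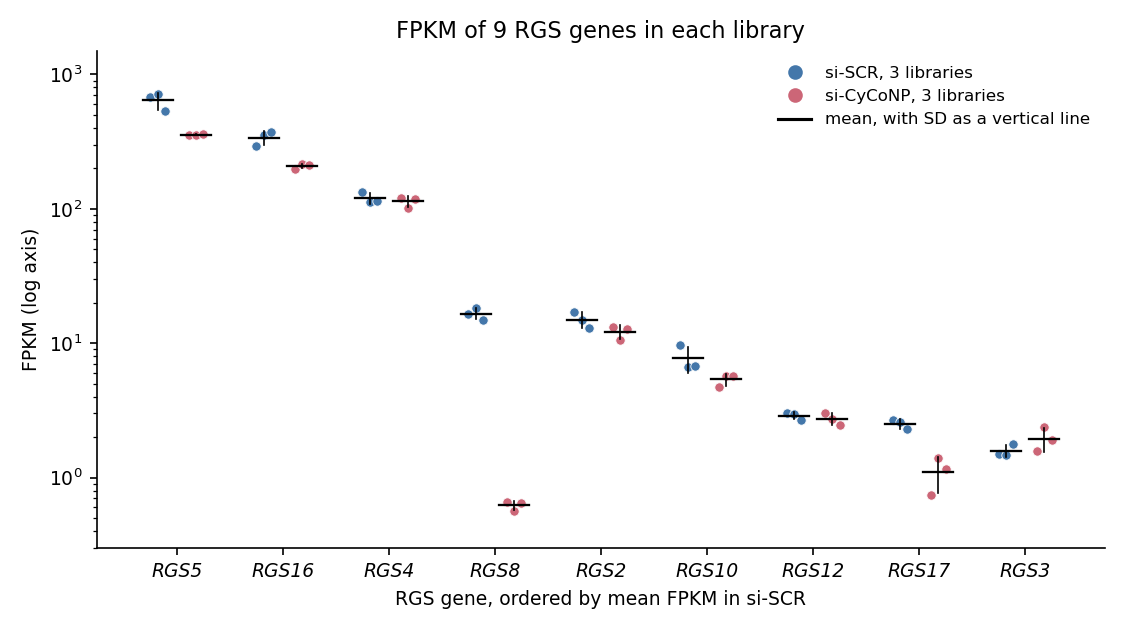
FPKM (log axis) of the 9 RGS members that passed the expression filter, with 1 point per library, horizontal bars for the group means and vertical lines for the SD (n = 3). RGS8 drops from 16.6 to 0.622 FPKM, whereas the points of RGS4, at 120 and 114 FPKM, overlap, and RGS7, at 0 counts in 4 of 6 libraries, is not drawn.

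Besides RGS8, 8 members were tested. RGS5, RGS16 and RGS17 fell, none rose, and RGS2, RGS3, RGS4, RGS10 and RGS12 did not pass the test at an adjusted p of 0.05. The 3 of 8 members that fell made up 37.5%, beside 14.2% of all tested genes that were lower at this threshold and 28.4% that passed in either direction. The si-SCR and si-CyCoNP FPKM did not overlap for 4 of the 8, each with si-CyCoNP lower, beside 16.1% of all tested genes in that direction and 40.3% in either. The median log2 fold change of the 8 was -0.48, beside 0.01 over all tested genes. The RNA came from whole cultures, so fewer cells expressing a gene and less RNA per cell cannot be told apart.

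RGS5 (ENSG00000143248, an R4 member acting on Gi and Gq) was the most abundant RGS transcript. Its FPKM was 674, 710 and 535 in si-SCR against 352, 356 and 362 in si-CyCoNP. Every si-CyCoNP library lay below every si-SCR library, and the si-SCR libraries were more spread. The means were 640 ± 92.3 and 357 ± 5.02 FPKM (SD, n = 3), and the log2 fold change was -0.91 ± 0.0888 (SE), with an adjusted p of 9.39e-09. It passed in 15 of 15 alternatives. The size stood under the limit of 1 on the log2 scale used by the study for a call, except without si-SCR replicate 3, where the log2 fold change was -1.04. In si-SCR, RGS5 ranked at position 35 of all genes by mean FPKM.

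RGS5 is annotated on chromosome 1 at 163111121 to 163321791, minus strand, and shares this interval with other genes. The lncRNA ENSG00000232995 on the same strand had 9 to 24 counts per library and RGS5-AS1 on the opposite strand had 1 to 4, and NUF2, a kinetochore gene on the opposite strand, 191 to 296, against 9951 to 19185 counts for RGS5. These are the counts as assigned by the authors, and how reads shared with the lncRNA on the same strand were assigned was not tested.

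RGS16 (ENSG00000143333), an R4 member that is known as an inducible regulator of Gi and Gq signalling, was second in level. Its FPKM was 291, 357 and 370 in si-SCR against 199, 215 and 210 in si-CyCoNP. The groups did not overlap. The means were 339 ± 42.1 and 208 ± 8.20 FPKM (SD, n = 3). RGS16 thus fell by 0.77 ± 0.0827 on the log2 scale (SE; adjusted p = 4.83e-08). It passed in 15 of 15 alternatives, with values between -0.86 and -0.69.

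RGS17 (ENSG00000091844; chromosome 6, 153004459 to 153131282, minus strand) is the RZ member, a regulator of Gz and Gi. It was expressed at a low level, with 2.7, 2.58 and 2.29 FPKM in si-SCR against 0.736, 1.39 and 1.16 FPKM in si-CyCoNP. The groups were apart, although si-CyCoNP replicate 1, with 28 counts, was below the other 2 libraries of its group at 47 and 38. The log2 fold change was -1.28 ± 0.214 (SE; adjusted p = 4.01e-05). Of the 8 members tested besides RGS8, RGS17 alone passed the limits on both p and fold, as did 2.98% of all tested genes downward, and none did so upward, as did 2.28%. Without si-CyCoNP replicate 1 the log2 fold change was -1.05, and over all 15 alternatives, each of which passed, it lay between -1.49 and -0.76.

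The members that did not pass included the third most abundant one. RGS4 (ENSG00000117152), an R4 member of neurons, had 133, 112 and 114 FPKM in si-SCR against 121, 102 and 119 FPKM in si-CyCoNP. The values of the groups interleaved. The log2 fold change was -0.14, with a 95% interval from -0.31 to 0.03 and an adjusted p of 0.255. RGS4 and RGS5 are neighbours on chromosome 1, with 34.3 kb between them.

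RGS2 (ENSG00000116741), an R4 member selective for Gq, had 17.1, 15.0 and 13.0 FPKM in si-SCR against 13.2, 10.5 and 12.7 FPKM in si-CyCoNP. The groups overlapped slightly, and the log2 fold change of -0.37 (95% interval -0.67 to -0.08) had an adjusted p of 0.0643. RGS10 (ENSG00000148908), a short R12 member, had 9.69, 6.68 and 6.73 FPKM in si-SCR against 4.74, 5.73 and 5.68 FPKM in si-CyCoNP. Its groups did not overlap, but with 29 to 53 counts per library the log2 fold change of -0.59 (95% interval -1.08 to -0.09) had an adjusted p of 0.0837.

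RGS12 (ENSG00000159788), a large R12 member with further protein domains, was at 2.89 ± 0.179 FPKM in si-SCR against 2.74 ± 0.264 in si-CyCoNP (SD, n = 3), and its log2 fold change of -0.14 had a 95% interval from -0.39 to 0.11 (adjusted p = 0.446). RGS3 (ENSG00000138835), the large R4 member, was at 1.59 ± 0.171 and 1.95 ± 0.402 FPKM, and its log2 fold change of 0.22, the one positive value among the members, had a 95% interval from -0.10 to 0.53 (adjusted p = 0.357). RGS7 (ENSG00000182901), the R7 member, had 0, 0 and 4 counts in si-SCR against 0, 0 and 1 in si-CyCoNP and was not tested. A count of 0 allows up to 3 counts in a library, or 0.625 to 0.797 CPM (counts scaled to a total of 1e+06), so a change of RGS7 was not detectable at this depth.

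Whether RGS2, RGS4 and RGS10 passed depended on 1 control library. Without si-SCR replicate 3, RGS2 (log2 fold change -0.49, adjusted p = 0.00845), RGS4 (-0.20, 0.0389) and RGS10 (-0.71, 0.0407) also passed, so that together with RGS14 the count of lower RGS genes, RGS8 included, was 8 in place of 5, although RGS9 then fell short of the expression filter. That library had the lowest RGS5 and RGS2 and the highest RGS16 FPKM of the si-SCR group. Leaving it out also raised the count over all genes, with 2224 lower in place of 1990. With the replicate number as a block, RGS2 also passed (adjusted p = 0.0255), and in the remaining alternatives RGS2, RGS4 and RGS10 did not.

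**Figure D2:**
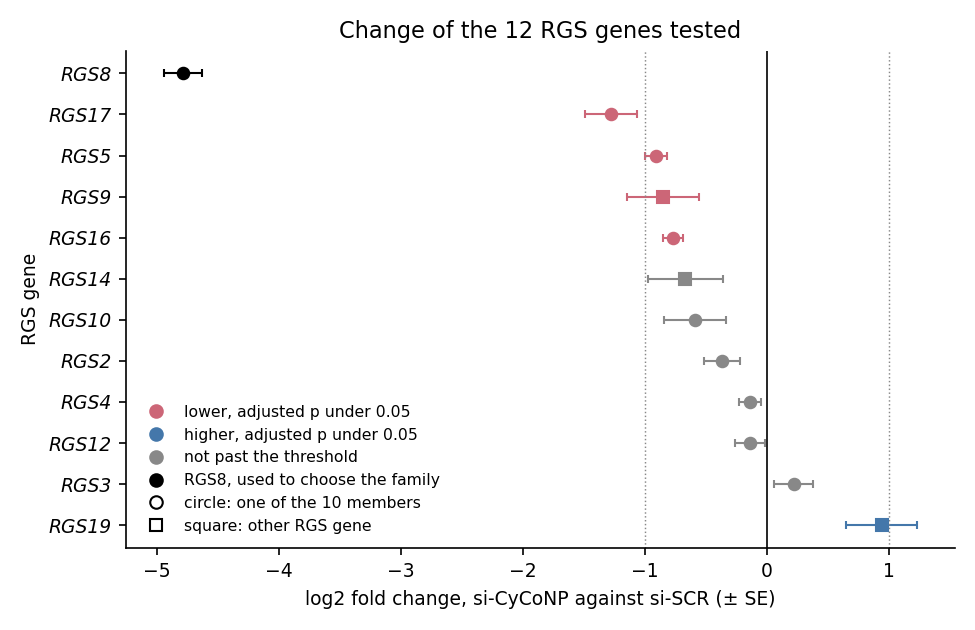
Log2 fold change of si-CyCoNP against si-SCR (± SE) for the 12 RGS genes tested, with dotted lines at -1 and 1, circles for members and squares for other RGS genes. RGS8 at -4.79 is far to the left of all others, RGS17, RGS5, RGS9 and RGS16 lie between -1.28 and -0.77, and RGS19 at 0.94 is the one gene that rose.

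By subfamily, 2 of the 5 tested R4 members other than RGS8 fell (RGS5 and RGS16), as did the single RZ member, beside 14.2% of all tested genes. Neither of the 2 R12 members passed, although the groups of RGS10 did not overlap. These counts are too small to compare the subfamilies. The members that fell were spread over the range of levels, with RGS5 and RGS16 the 2 highest in si-SCR and RGS17 among the lowest.

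The order of the members by FPKM changed mainly through RGS8. In si-SCR the order was RGS5, RGS16, RGS4, RGS8, RGS2, RGS10, RGS12, RGS17, RGS3 and RGS7. RGS8 and RGS2, at 16.6 ± 1.58 and 15.0 ± 2.02 FPKM (SD, n = 3), did not differ beyond their spread, and the lowest RGS12 and the highest RGS17 value met at 2.69 and 2.7 FPKM. The other neighbours in this order did not overlap in si-SCR. In si-CyCoNP RGS8 stood at position 9, above RGS7 alone, and the 3 most abundant genes kept their order.

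The summed FPKM of the 10 members was 1149, 1226 and 1061 in si-SCR against 696.0, 695.8 and 716.7 in si-CyCoNP, with no overlap. RGS5, RGS16 and RGS4 made up 95.6% to 96.7% of the sum in every library. RGS8 made up 1.44 ± 0.0321% of the sum in si-SCR and 0.0885 ± 0.0068% in si-CyCoNP (SD, n = 3), so its loss contributed little to the lower sum. The share of RGS4, whose own level did not pass the test, was 10.5 ± 1.24% in si-SCR and 16.2 ± 1.42% in si-CyCoNP.

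**Figure D3:**
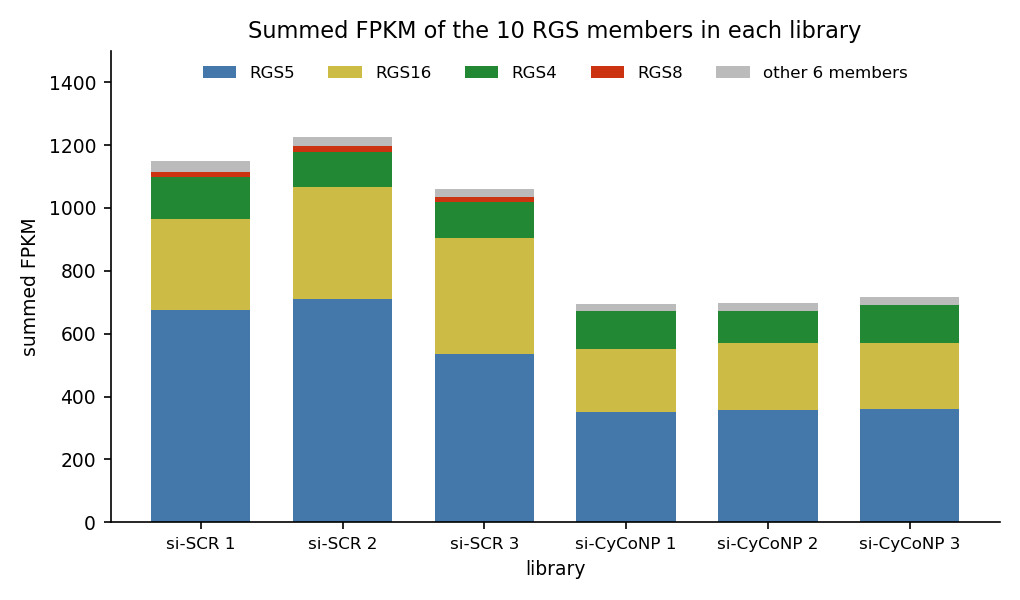
Summed FPKM of the 10 RGS members in each library, stacked by gene. The si-SCR bars reach 1061 to 1226 FPKM and the si-CyCoNP bars 695.8 to 716.7, most of each bar is RGS5 and RGS16, and the RGS8 segment is visible in si-SCR alone.

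The other 12 genes named RGS were examined for what the 10 members leave out, and 3 of them passed the expression filter. RGS9 (ENSG00000108370), an R7 member known from photoreceptors and striatal neurons, had 0.892, 1.02 and 1.42 FPKM in si-SCR against 0.473, 0.701 and 0.787 FPKM in si-CyCoNP. The groups did not overlap, and the log2 fold change was -0.85 ± 0.295 (SE; adjusted p = 0.031). Its mean reached the expression limit in si-SCR alone (1.11 against 0.653 FPKM), so RGS9 entered the test through the group where it was higher. It passed in 9 of 14 alternatives. The call was lost in DESeq2, the tool named in the study's methods (-0.85, adjusted p = 0.0918), and in limma on log2(FPKM + 1) (-0.35, adjusted p = 0.32) and on log2(FPKM + 0.1) (-0.68, adjusted p = 0.255). RGS9 likewise fell short with si-CyCoNP replicate 1 (-0.65, adjusted p = 0.154) or replicate 2 (-0.90, adjusted p = 0.0596) left out.

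RGS19 (ENSG00000171700), an RZ relative of RGS17 also known as GAIP, was the one RGS gene that rose. Its FPKM was 1.61, 2.62 and 4.02 in si-SCR against 3.8, 6.73 and 6.42 in si-CyCoNP. The lowest si-CyCoNP library was below the highest si-SCR library, so the groups overlapped. The log2 fold change was 0.94 ± 0.291 (SE; adjusted p = 0.0153), and RGS19 passed in 10 of 15 alternatives. It no longer passed without si-SCR replicate 1 (0.68, adjusted p = 0.0788), without si-CyCoNP replicate 2 (0.80, adjusted p = 0.0881) or without si-CyCoNP replicate 3 (0.83, adjusted p = 0.0579), nor in limma on log2(FPKM + 1) (0.85, adjusted p = 0.0824) or log2(FPKM + 0.1) (1.06, adjusted p = 0.0861). The 95% intervals of the 2 RZ genes lay on opposite sides of 0, from -1.70 to -0.86 for RGS17 and from 0.37 to 1.51 for RGS19.

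RGS14 (ENSG00000169220), an R12 member of hippocampal neurons, had 2.77, 2.30 and 1.3 FPKM in si-SCR against 1.69, 1.40 and 1.04 FPKM in si-CyCoNP, and its log2 fold change of -0.67 ± 0.309 (SE) did not pass (adjusted p = 0.113), except without si-SCR replicate 3 (adjusted p = 0.00856) or with the replicate block (adjusted p = 0.0495). Of the other 9 genes, 5 had no count in any library and 4 stayed under the expression limit. Leaving out RGS8, 11 of the RGS genes were tested, of which 4 were lower, beside 14.2% of all tested genes, and 1 was higher, beside 14.2%. The 4 lower genes include RGS9, which reached the expression limit in si-SCR alone.

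RGS8 and RGS16 lie in tandem on the minus strand of chromosome 1, with RGS16 at 182598623 to 182604389 and 37.4 kb between the genes. RGS8 amounted to 0.0566, 0.0509 and 0.0406 of the RGS16 FPKM in si-SCR against to 0.00329, 0.00262 and 0.00309 in si-CyCoNP, so the neighbours were lowered to very unequal extents. Within 1 Mb of the RGS8 start the tables listed 50 genes, of which 13 besides RGS8 were tested. Of these, 5 were lower, RGS16 among them, 2 were higher and 6 did not pass. Over all tested genes, 14.2% were lower and 14.2% were higher.

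LINC01686 (ENSG00000261504), a lncRNA on the plus strand between RGS16 and RGS8 (chromosome 1, 182615254 to 182616629), was singled out after its values had been seen. It had 92, 93 and 83 counts in si-SCR against 41, 17 and 23 in si-CyCoNP, with no overlap. Its log2 fold change of -1.85 ± 0.239 (SE; adjusted p = 9.36e-07) was the largest in size of the tested genes in this window after RGS8. NPL, which encodes a sialic acid lyase, starts 105 kb upstream of RGS8 and went from 3.31 ± 0.326 to 1.54 ± 0.369 FPKM (SD, n = 3; log2 fold change -1.17, adjusted p = 1.47e-04). GLUL, glutamine synthetase, started 292 kb away and fell from 25.8 ± 0.748 to 18.1 ± 0.530 FPKM (log2 fold change -0.58, adjusted p = 3.09e-06), and ARPC5, a subunit of the actin-nucleating Arp2/3 complex, by 0.39 on the log2 scale (adjusted p = 0.00165). In contrast, NMNAT2, an axonal NAD synthesis enzyme, was higher at 0.32 (adjusted p = 0.00832).

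**Figure D4:**
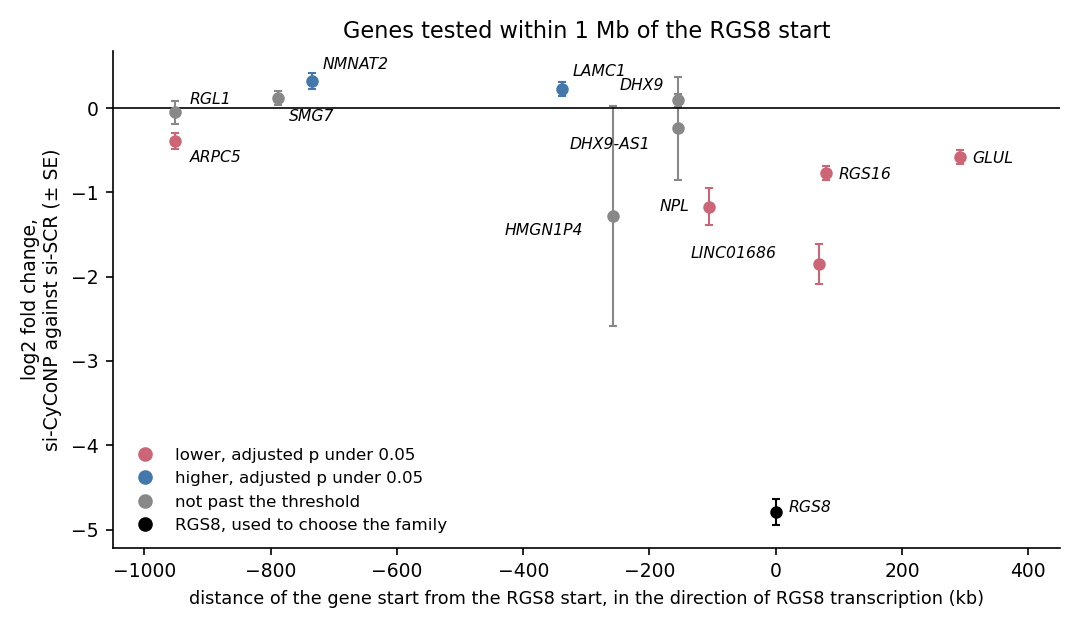
Log2 fold change (± SE) of 13 of the 14 tested genes within 1 Mb of the RGS8 start, against the distance of each gene's start in kb, positive in the direction of RGS8 transcription. RGS8 at -4.79, LINC01686 at -1.85, NPL at -1.17 and RGS16 at -0.77 are lower, whereas DHX9 in the same stretch stays near 0.

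The 250 bases before the RefSeq starts of RGS8 and RGS16 were searched for 6 motifs on both strands. RefSeq (GRCh38.p14) had starts for 10 of the 10 members, 28 in all. The E box CAGCTG was the one motif found before both genes, with the match in capitals and 8 bases on each side, 5′ to 3′ in the direction of transcription.
RGS8: ctcggaggCAGCTGtctgtgag
RGS16: gcgtgctcCAGCTGccgcgaaa
The RGS8 match begins 158 bases before the start at 182684587 (chromosome 1, 182684740 to 182684745) and the RGS16 match 152 bases before the start at 182604389 (182604536 to 182604541). A further RGS8 start holds a match too. The same letters occurred before 9 of the 28 member starts, RGS8 and RGS16 included, and before 14.0% of the 35116 starts in RefSeq. They were not found before the starts of RGS5, RGS17 or RGS4, so other members held them too. Of RGS8 and RGS16, TATAAA and TGACGTCA, the full cyclic AMP response element, were found before neither. CCAAT and GGGCGG were found before RGS16 and not RGS8, and AGGTCA, part of a retinoic acid response element, before 1 RGS8 start and not RGS16. In this order, the 5 motifs occurred before 2, 0, 6, 13 and 4 of the 28 member starts. They occurred before 10.7%, 1.65%, 32.0%, 42.6% and 12.1% of all starts, respectively. Which start the cells used was not measured.

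In the interval around RGS4 and RGS5, 6 of the 10 listed neighbours were tested. UHMK1, a kinase that interacts with stathmin, fell from 32.7 ± 3.94 to 20.6 ± 1.99 FPKM (SD, n = 3; log2 fold change -0.73, adjusted p = 1.31e-06). NUF2 and DDR2 were among 4 that did not pass.

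The genes of the pathway in which RGS proteins act were examined in 6 lists, which held 122 receptors, G protein subunits, effectors and further regulators. Of these, 61 were tested, 17 were lower and 12 were higher, a share of 47.5% beside 28.4% of all tested genes. Their median log2 fold change was -0.08. The directions were mixed in 4 of the lists, the beta and gamma subunits moved down where they passed, and the list of R7 partners held 1 tested gene.

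Among 54 receptors that couple to Gi or Gq, 19 were tested, 6 were lower and 6 were higher. Together they made up 63.2%, beside 28.4% of all tested genes. CHRM1, the Gq coupled muscarinic M1 receptor, had 12.1, 7.44 and 7.53 FPKM in si-SCR against 1.41, 0.579 and 0.891 in si-CyCoNP. This was a clear separation, with a log2 fold change of -3.27 ± 0.269 (SE; adjusted p = 4.94e-10). HTR2B, a Gq coupled serotonin receptor, fell from 25.3 ± 0.423 to 9.06 ± 1.08 FPKM (SD, n = 3; log2 fold change -1.54, adjusted p = 9.11e-10), and NPY2R, a Gi coupled receptor for neuropeptide Y, from 8.93 ± 2.95 to 3.21 ± 0.784 FPKM (-1.53, adjusted p = 3.80e-06). CHRM2, the Gi coupled muscarinic M2 receptor, went the other way. Its mean reached the expression limit in si-CyCoNP alone (1.19 against 0.262 FPKM), so CHRM2 entered the test through the group where it was higher. It had 0.476, 0.160 and 0.151 FPKM in si-SCR against 1.08, 1.3 and 1.19 in si-CyCoNP (log2 fold change 2.10, adjusted p = 4.27e-05), and it did not pass in limma on log2(FPKM + 1) (0.80, adjusted p = 0.0674) or on log2(FPKM + 0.1) (1.94, adjusted p = 0.0541).

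Of the G alpha subunits, the direct partners of RGS proteins, 10 were tested, 1 was lower and 2 were higher. This share of 30.0% was close to the 28.4% of all tested genes. GNAS, the Gs alpha subunit, on which most RGS proteins do not act, fell from 129 ± 10.2 to 89.4 ± 1.22 FPKM (SD, n = 3; log2 fold change -0.60, adjusted p = 6.25e-07). GNA11, a Gq family subunit, rose from 14.0 ± 1.44 to 22.0 ± 1.70 FPKM (0.58, adjusted p = 2.48e-05), and GNA12 rose by 0.38 on the log2 scale (adjusted p = 0.00396). The Gi subunits GNAI1, GNAI2 and GNAI3, GNAO1 of Go, and GNAZ of Gz did not pass, with adjusted p-values from 0.122 to 0.552.

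Of 11 tested beta and gamma subunits, 3 were lower and none was higher at this threshold. The share that passed, 27.3%, was close to the 28.4% of all tested genes. GNB1, a beta subunit, fell from 101 ± 6.61 to 67.8 ± 3.68 FPKM (SD, n = 3; log2 fold change -0.64, adjusted p = 5.42e-07). GNG12 fell by 0.80 on the log2 scale (adjusted p = 1.52e-05) and GNB2 by 0.31 (adjusted p = 0.00568). GNG12 passed in all 15 alternatives and GNB2 in 12. GNB2 did not pass without si-SCR replicate 2 (adjusted p = 0.0585), nor in limma on log2(FPKM + 1) (0.0758) or log2(FPKM + 0.1) (0.0717). GNB5, the partner of R7 proteins, was at 0.858 to 0.880 FPKM in si-SCR against 0.501 to 0.725 in si-CyCoNP, under the expression limit. GPR158, a receptor that binds R7 complexes, was the one tested R7 partner and rose by 0.47 (adjusted p = 0.0121), though not without si-SCR replicate 2 (adjusted p = 0.0595) or si-CyCoNP replicate 2 (adjusted p = 0.0684).

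Of 8 effectors tested, 3 were lower and 2 were higher, 62.5% in all beside 28.4% of all tested genes. ADCY6, an adenylyl cyclase inhibited by Gi, fell by 0.51 on the log2 scale (adjusted p = 0.00103), and ADCY9, a further cyclase, was higher at 0.62 (adjusted p = 8.96e-05). The Gq effector PLCB3 was lower at -0.48 (adjusted p = 0.0278) but passed in 6 of 15 alternatives only, and PLCB1 and PLCB4 did not pass. Among 12 tested regulators of other kinds, 4 were lower and 1 was higher, 41.7% in all beside the same 28.4%. GRK5, a kinase that phosphorylates active receptors, fell from 4.86 ± 0.732 to 2.14 ± 0.604 FPKM (SD, n = 3; log2 fold change -1.24, adjusted p = 5.80e-06). RIC8B and GPSM1, which act on the nucleotide cycle of G alpha, fell by 0.52 (adjusted p = 0.0092) and 0.44 (adjusted p = 0.00853), and AXIN1, a Wnt scaffold that carries an RGS domain of its own, was higher at 0.53 (adjusted p = 0.00807). Of these 4, GRK5 passed in all 15 alternatives, AXIN1 in 14, RIC8B in 12 and GPSM1 in 11. Without si-CyCoNP replicate 2, RIC8B (adjusted p = 0.0701) and AXIN1 (0.0536) did not pass. GPSM1 did not pass without si-SCR replicate 1 (0.0551) or si-CyCoNP replicate 3 (0.0709), among others. The largest adjusted p over the alternatives was 0.0793 for RIC8B and 0.16 for GPSM1.

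**Figure D5:**
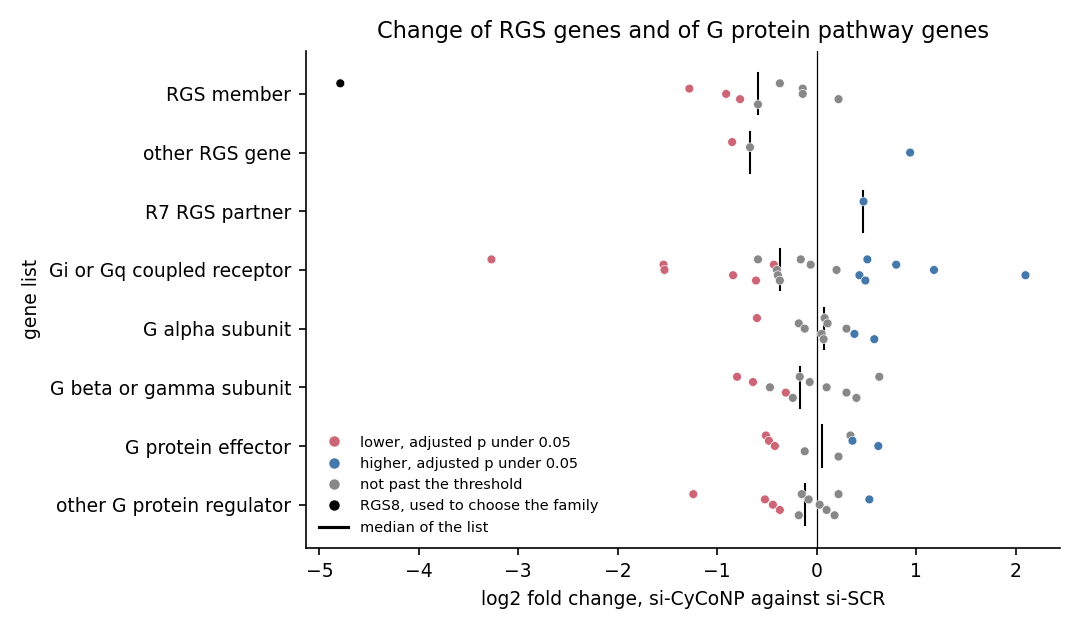
Log2 fold change of each tested gene in the RGS and G protein lists, with 1 point per gene and a vertical bar at the median of each list. The receptors spread from -3.27 to 2.10, the subunits, effectors and other regulators lie between -1.24 and 0.63, and the medians of these lists lie between -0.37 and 0.08.

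RGS5 is a pericyte gene in tissue, so the 8 pericyte and smooth muscle markers are given beside it. Of these, 4 were tested. KCNJ8, a potassium channel subunit, fell from 77.0 ± 7.08 to 48.5 ± 0.914 FPKM (SD, n = 3; log2 fold change -0.73, adjusted p = 2.20e-07), ABCC9, its sulfonylurea receptor partner, rose by 0.57 (adjusted p = 0.00693), and PDGFRB and ACTA2 did not pass. MYH11 was at 0.0118 FPKM in 1 library and 0 in the other 5, HIGD1B was at 0 in all libraries, and CSPG4 and NOTCH3 stayed at or below 0.445 FPKM. Among the 9 Schwann cell and fibroblast markers 4 were tested, and COL1A1 rose by 1.68 on the log2 scale (adjusted p = 8.62e-06), DCN fell by 0.82 (adjusted p = 2.24e-04), and SOX10 and COL1A2 were at 0 in all libraries. COL1A1 reached the expression limit in si-CyCoNP alone, with a mean of 1.5 FPKM against 0.45 in si-SCR. Of the 12 neuroblastoma markers, 9 were lower and 1 was higher, 83.3% in all beside 28.4% of all tested genes. MYCN, the oncogene amplified in this line, was the one that rose, from 428 ± 19.0 to 806 ± 57.7 FPKM (SD, n = 3; log2 fold change 0.84, adjusted p = 2.65e-09). Their part in the RGS differences was not tested.

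The genes outside the RGS family whose log2 CPM followed RGS8 most closely over the 6 libraries were IL6ST, RELL1, SMAD2, KIF5B and RDX, with Pearson correlations from 0.9986 to 0.9994. PRPF31, GDF11 and ZNF629 were the most opposite, from -0.9992 to -0.9983. These correlations describe 6 libraries that fall into 2 separate groups, so they mostly show which genes differ between the groups with little spread inside them, and 702 of 13954 genes exceeded 0.95. The likeness is one of shape and not of size, since IL6ST, the shared receptor subunit of the interleukin 6 family, went from 43.8 ± 2.31 to 13.9 ± 0.129 FPKM (SD, n = 3), 3.31-fold lower, and SMAD2, a mediator of TGF-beta signalling, from 2.99 ± 0.0428 to 2.57 ± 0.0184 FPKM, 1.22-fold lower. Among the other members, the correlation with RGS8 was 0.964 for RGS5 and RGS16, 0.915 for RGS17, 0.77 for RGS2 and 0.516 for RGS4.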

How the data were processed

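The authors prepared stranded total RNA libraries after ribosomal RNA depletion. Per the submitters' processing notes and the study's methods, reads were trimmed with Trimmomatic 0.39 and Cutadapt 3.2, ribosomal reads were removed with Bowtie2 2.4.2, and the rest were aligned to GRCh38 with STAR 2.7.7a. The deposited counts are unnormalised uniquely mapping fragments per Ensembl gene, and the deposited FPKM values were computed by the authors from these counts, the gene length and the library total. Near-identical gene copies are undercounted in both tables. Groups and replicate numbers came from the sample titles.

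The 13966 genes that reached an average of 1 FPKM in si-SCR or si-CyCoNP were tested on the counts with TMM scaling and the quasi-likelihood test of edgeR 4.0.16 (R 4.3.3), with Benjamini-Hochberg adjustment over all of them. A gene passed at an adjusted p under 0.05 and was called with a log2 fold change beyond 1 as well. SE is the log2 fold change divided by the square root of F. Correlations used log2 CPM (counts scaled to a fixed library total, with the TMM factors applied) with a prior count of 2. The script was tested on simulated counts.

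The members, gene lists and tests were chosen with earlier results of these data known. Named genes were all members, the other RGS genes tested, up to 4 genes with the smallest p-values among those passing in each further list, the 5 genes most and 3 least correlated with RGS8, and LINC02381. LINC01686, and the named genes that did not pass, were added after their values had been seen. The neuroblastoma markers are given mainly as counts. Values of some listed genes are not reported here, and these genes enter only the counts. The alternatives were DESeq2 1.42.0, DESeq2 size factors, upper quartile scaling, library totals alone, the default edgeR filter, no filter, the replicate block, limma 3.58.1 on log2(FPKM + 1) and log2(FPKM + 0.1), and leaving out each library. The study's methods name DESeq2, in another version, and a supplementary figure legend names a likelihood ratio test in edgeR. Positions are from GENCODE 44 and RefSeq on GRCh38, and symbols were found for 60357 of 60676 identifiers. Overlapping genes on the same strand remain uncertain.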

Additional observations from a re-analysis of the deposited data

How the results depend on the processing

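RGS5, RGS16 and RGS17 kept their direction and passed in all 15 alternatives, and no RGS gene changed direction in any. The count of lower RGS genes, which includes RGS8 by its choice, was 5, with 4 to 8 when 1 library was left out. The 8 came without si-SCR replicate 3, where 2224 of all genes were lower in place of 1990. The count of higher RGS genes was 1, with 0 to 1 when 1 library was left out and 0 in limma with either pseudocount on FPKM (1 or 0.1). In the same limma fits the pathway and neighbour genes that passed downward numbered 12 and 12, in place of 21, and all genes lower 1118 and 1113, in place of 1990. On log2(FPKM + 1) 207 genes were called higher, in place of 319, and 180 lower, in place of 416. The added 1 shrinks the change of genes near that level. With library totals alone the median log2 fold change of all genes moved by 0.0664 and 2454 genes were higher and 1575 lower, in place of 1981 and 1990.

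The replicate numbers do not mark a shared culture in the labels. Deviations of same-numbered libraries correlated by 0.0907, 0.0727 and 0.108, so the numbers were not taken to pair the samples. With the replicate block, 7 RGS genes were lower, RGS8 included, and 1 was higher, and 2402 and 2368 genes were higher and lower overall. Depth limits RGS7 and RGS10, with few counts per library.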
